A study of Mus musculus with 38 samples.

Results

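Binding of SATB1 and of CTCF was compared in mouse skin by urea ChIP-seq, on the peak lists of 2 SATB1 libraries, TKS404B and TKS404E, and 1 CTCF library, TKS403C. A SATB1-only region was called by both SATB1 lists and had no CTCF peak, a CTCF-only peak had no SATB1 peak of either list, and a shared region was called by both SATB1 lists and had a CTCF peak, with 1 bp as the least overlap. On chromosomes 1 to 19, X and Y this gave 7886 SATB1-only regions, 29815 CTCF-only peaks and 978 shared regions, 38679 members in all. The 11 lists of the series, which has 38 samples, hold 698638 peaks. The 2 SATB1 lists held 11210 and 10846 peaks and the CTCF list 31509, all sequences counted.

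All 3 libraries came from wild-type C57BL/6 mice, labelled SATB1 Wild-type, and from skin, labelled as cell type Skin, whose crosslinked chromatin was purified in urea before immunoprecipitation. The protocol names primary keratinocytes of the epidermis. The labels give the age as postnatal day 13 and the extract protocol gives postnatal day 5, and the study's methods name an earlier one. SATB1 was precipitated with the home made antibody 1583D, and CTCF with a commercial antibody. The titles carry durations, 55 s and 60 s for SATB1 and 60 s for CTCF, without naming the step. The SATB1 libraries share a code number in their titles, which the CTCF library does not, and the labels do not say what it stands for. Antibody and code number cannot be told apart. The study's checklist calls its replicates cells from different animals, without naming libraries. The lists hold no counts and the read total of each library was not given in the sources used here, and no expression was measured here against which the cell type could be checked. Other lists of the series used beside these are urea SATB1 in thymus and brain and standard SATB1 ChIP-seq in thymus, with 2 lists each, urea CTCF in thymus with 1 list, and the BUR reference map, made by binding SATB1 protein to DNA fragments in vitro. The lists from cells are all labelled SATB1 Wild-type and C57BL/6. Age labels are 5 and 6 weeks for the brain lists and postnatal day 13 for the thymus lists, but the titles of thymus CTCF and of standard list 1 say 6 weeks.

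SATB1 is a nuclear protein that folds chromatin in thymocytes, keratinocytes and some neurons. It recognises base-unpairing regions (BURs), AT-rich DNA that unwinds easily and in which long stretches of a strand lack either C or G. CTCF is a zinc finger protein that reads a GC-rich motif and, with cohesin, anchors chromatin loops. Chromatin purified in urea is stripped of proteins that are not crosslinked to DNA.

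The windows of 200 bp around the summits of the highest members show what each class looked like as sequence (mm9, NCBIM37, plus strand). The first pair are the 2 SATB1-only regions of highest fold enrichment, with the longest run without C or without G in capitals. That run was 34 bp near Col12a1 and 38 bp in Ces1e, and AT content was 77.0% and 74.5%.
Col12a1, chr9:79230205-79230404, plus strand: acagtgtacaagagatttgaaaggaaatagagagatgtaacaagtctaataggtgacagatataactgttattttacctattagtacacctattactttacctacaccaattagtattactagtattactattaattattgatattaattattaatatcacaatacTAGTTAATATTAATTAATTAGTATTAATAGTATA
Ces1e, chr8:95731207-95731406, plus strand: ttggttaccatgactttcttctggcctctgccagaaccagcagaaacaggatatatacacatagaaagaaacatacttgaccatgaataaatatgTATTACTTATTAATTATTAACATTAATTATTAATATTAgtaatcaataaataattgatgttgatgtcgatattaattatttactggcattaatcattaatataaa

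The next pair are CTCF-only peaks, with every match to a CTCF pattern in capitals. The window in Rapgef1, among the 5 highest, held no match to the CTCF core motif and 2 matches to a shortened pattern, CCNNNAGNNGGC. The highest CTCF-only peak with the core motif in its window lay in an intron of Sec22c, with a CTCF fold of 20.0, and held the motif 5 times as a tandem array. The shortened pattern and the Sec22c peak were chosen after their values were seen.
Rapgef1, chr2:29475042-29475241, plus strand: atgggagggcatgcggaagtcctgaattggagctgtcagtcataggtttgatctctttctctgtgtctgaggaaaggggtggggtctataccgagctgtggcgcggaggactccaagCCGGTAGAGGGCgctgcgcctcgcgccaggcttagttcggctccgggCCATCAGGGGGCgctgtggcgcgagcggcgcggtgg
Sec22c, chr9:121606821-121607020, plus strand: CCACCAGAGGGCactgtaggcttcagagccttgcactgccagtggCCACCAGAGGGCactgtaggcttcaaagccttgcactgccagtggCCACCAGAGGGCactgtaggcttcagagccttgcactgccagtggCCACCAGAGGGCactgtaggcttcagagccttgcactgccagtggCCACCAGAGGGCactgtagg

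The last pair are the 2 highest shared regions, leaving out those with a peak in all 11 lists. In these, in introns of Cdrt4 and Hhat, the longest run without G or without C, in capitals, was 35 bp and 40 bp, made almost wholly of C or of G rather than of A and T. The Hhat window also held a match to the shortened CTCF pattern, which is left in lower case here.
Cdrt4, chr11:62768110-62768309, plus strand: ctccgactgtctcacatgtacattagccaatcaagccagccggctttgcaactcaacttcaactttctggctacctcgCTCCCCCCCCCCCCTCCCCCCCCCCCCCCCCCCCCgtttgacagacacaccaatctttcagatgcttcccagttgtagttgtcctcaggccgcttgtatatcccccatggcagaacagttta
Hhat, chr1:194484268-194484467, plus strand: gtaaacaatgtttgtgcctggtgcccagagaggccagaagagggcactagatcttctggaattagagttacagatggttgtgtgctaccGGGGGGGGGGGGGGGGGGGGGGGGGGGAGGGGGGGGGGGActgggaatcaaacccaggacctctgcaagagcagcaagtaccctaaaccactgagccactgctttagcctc

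The regions of both SATB1 lists were the stronger ones. Of 12719 merged SATB1 regions 8864 were in both lists, and their folds correlated with a Spearman rho of 0.90 across these regions, a description over regions that share the libraries. The 3855 regions found by 1 list had a median fold of 5.24, against 10.3 in the regions of both. Of the regions in both lists 11.0% had a CTCF peak, and of those in 1 list 10.9%, or 419. These 419 and 416 CTCF peaks that met 1 SATB1 list alone belong to no class. Seen from CTCF, 4.00% of its 31215 peaks on these chromosomes met SATB1 list 1 and 3.61% met list 2.

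The classes differed in base composition. SATB1-only regions had a median AT content of 66.8%, with 58.3% and 74.0% as the 10th and 90th percentiles. CTCF-only peaks had a median of 52.2%, from 42% to 61.3%, and the shared regions 54.2%, from 44.0% to 65.1%. Windows of 300 bp every 10 kb of the genome had 58.3%, so SATB1-only regions lay above the genome and both other classes below it. The median difference between SATB1-only and CTCF-only was 14.7 percentage points, and with either SATB1 list alone it was 15.2 and 15.3, values that differ from each other by far less than the classes do. No test between the proteins was run, since CTCF has 1 list.

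**Figure D1:**
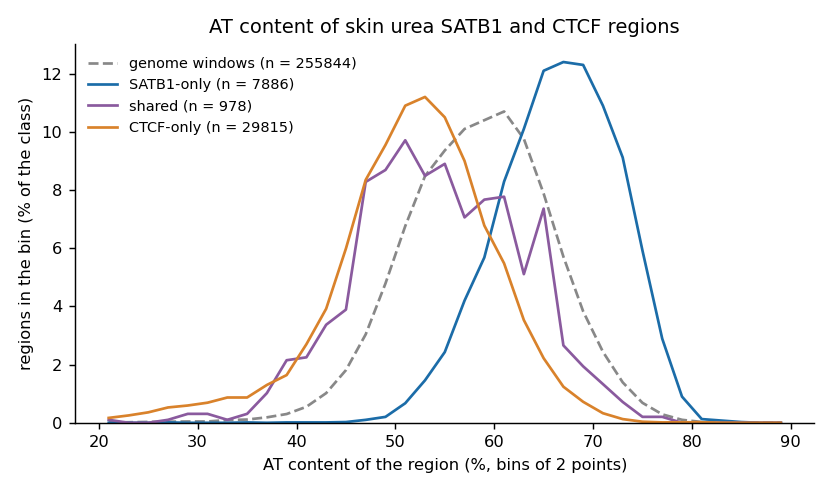
Percentage of regions of each class (vertical axis) by AT content in bins of 2 percentage points (horizontal axis), with windows of 300 bp across the genome as a dashed line. SATB1-only regions peak to the right of the genome, around their median of 66.8%, and CTCF-only peaks to its left, around 52.2%, with the shared regions close to the latter.

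Sequence features followed the same order. The longest run without C or without G in 300 bp around the summit had a median of 37.0 bp in SATB1-only regions, 28.0 bp in shared regions, 23.0 bp in CTCF-only peaks and 27.0 bp in genome windows. Runs of 30 bp or more were present in 75.7% of SATB1-only and 26.8% of CTCF-only windows, against 38.8% of genome windows. The CTCF core motif, searched on both strands with its ambiguous bases, was in 19.9% of CTCF-only windows, 0.409% of shared, 0.0380% of SATB1-only and 0.150% of genome windows. The shortened pattern CCNNNAGNNGGC was in 45.1% of CTCF-only, 3.48% of shared, 1.37% of SATB1-only and 3.12% of genome windows. In shared regions, each called in the CTCF list, the core motif was thus in 4 windows, and the shortened pattern was close to its genome share. The windows of shared and SATB1-only regions were centred on the summit in SATB1 list 1, and those of CTCF-only peaks on the CTCF summit. Motif shares of shared and CTCF-only windows are therefore not fully alike, and shared windows around the CTCF summit were not searched. With CTCF-only peaks ranked by fold, the core motif was in 10.8% of the lowest 7453 and in 29.8% of the highest 7454. It was in 28.6% of the 16562 CTCF-only peaks also called in thymus and in 8.97% of the other 13253.

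BURs overlapped 88.7% of SATB1-only regions, 25.3% of shared regions and 3.11% of CTCF-only peaks, against 6.78% of genome windows. The genome windows, at 300 bp, were shorter than the median region of each class, with 433, 440 and 390 bp in that order. The genome value is therefore not fully a like comparison. The 6995 SATB1-only regions on a BUR had a median fold of 9.73 and a median AT content of 67.5%, and the 891 off a BUR 7.23 and 61.1%. The share on a BUR was 82.4% in the 1971 SATB1-only regions of lowest fold and 95.8% in the 1972 of highest fold. The latter were also longer, with a median of 621 bp against 330 bp. Overlap counted from 1 bp, and the part of length in this rise was not tested. Most BURs had no skin peak of either protein: 221552 of 232310 on these chromosomes had none. These unbound BURs were richer in AT than the SATB1-only regions, with a median of 70.8%, and their C- or G-free run was longer, with a median of 40.0 bp. Tandem repeats of at least 24 bp with a unit of up to 6 bases were in 21.5% of unbound BURs and in 8.58% of SATB1-only windows.

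SATB1-only regions were found again in other tissues: 95.1% and 95.7% had a peak in the thymus urea SATB1 lists and 93.8% and 92.7% in the brain lists. Of unbound BURs 11.1% and 9.33% had a thymus peak and 34.7% and 31.6% a brain peak. Even the 891 SATB1-only regions off a BUR had a thymus peak in 90.8% and 88.7%. Standard SATB1 ChIP-seq in thymus, by contrast, met 0.938% and 0.697% of SATB1-only regions, but 34.2% and 16.1% of CTCF-only peaks. Of unbound BURs these standard lists met 0.459% and 0.351%, and no share of genome windows was computed. Thymus CTCF met 55.5% of CTCF-only peaks and 0.0761% of SATB1-only regions, which is 6 regions. The low shares of SATB1-only regions in the standard and thymus CTCF lists follow in part from the class rule, which removed regions with a skin CTCF peak. Of the 978 shared regions so removed 770 had a peak in either standard list, against 105 of the 7886 SATB1-only regions. Of all peaks in the 2 skin SATB1 lists, 1.68% and 1.70% met thymus CTCF. A peak in exactly 7 of the 11 lists was present for 82.1% of SATB1-only regions. The standard lists were made with different antibodies, ab109122 in list 1 and 1583D in list 2.

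**Figure D2:**
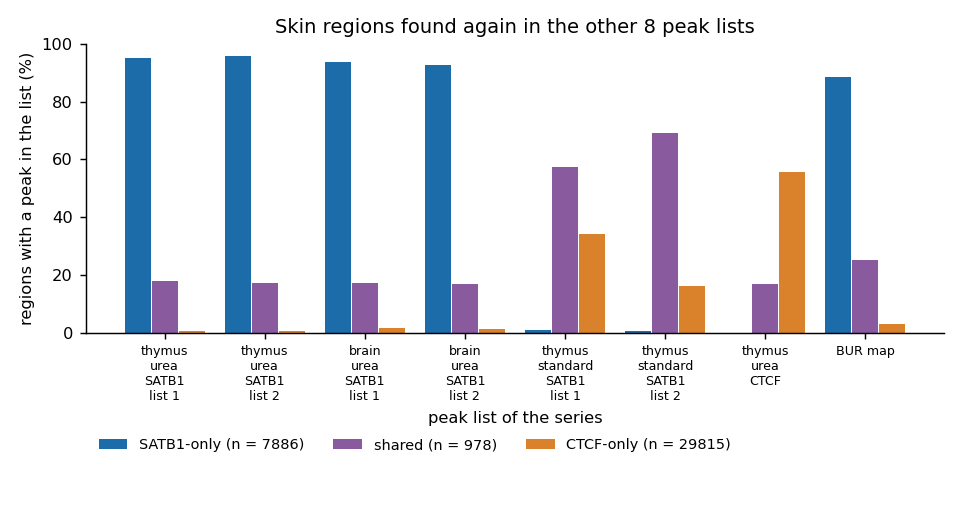
Percentage of the SATB1-only, shared and CTCF-only regions (bars) that have a peak in each of the other 8 lists of the series, with 1 bar per class and list and no error bar because each bar is 1 list. SATB1-only bars exceed 88% in the urea SATB1 lists and the BUR map and are under 1% in the standard and CTCF lists, while the shared class is highest in the 2 standard SATB1 lists.

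The proteins also differed in where they lay relative to genes. The median distance from the centre of a region to the nearest start site of a protein-coding gene was 104 kb for SATB1-only, 22.3 kb for CTCF-only and 53.1 kb for shared regions, against 68.3 kb for genome windows. Within 1 kb of a start site lay 0.697% of SATB1-only regions (55 regions), 8.40% of CTCF-only peaks (2504) and 4.29% of shared regions (42), with 1.62% for the genome. The difference between SATB1-only and CTCF-only was -7.70 percentage points. More than 100 kb from any start lay 50.9% of SATB1-only regions and 16.5% of CTCF-only peaks. Exons outside promoters held 3.32% of SATB1-only regions and 11.4% of CTCF-only peaks, introns 31.5% and 33.3%, and intergenic sequence 64.5% and 47.0%.

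Gene density around the regions gave the same order. The median number of protein-coding start sites in 1 Mb around a region was 4 for SATB1-only, 7 for shared and 11 for CTCF-only, with 6 for the genome. No start site was in that window for 16.4% of SATB1-only regions and 1.65% of CTCF-only peaks. In bins of 1 Mb without any gene start, SATB1-only regions averaged 4.64 and CTCF-only peaks 2.14. In bins with 16 or more starts these means were 2.07 and 23.9. BURs thinned out faster than SATB1-only regions, from 165 to 51.3 per bin, so that SATB1-only regions per 100 BURs rose from 2.81 to 4.04. Over 2568 bins the Spearman rho between SATB1-only and CTCF-only was -0.43, and with gene starts it was -0.38 for SATB1-only and 0.74 for CTCF-only, values that describe bins which share base composition and libraries. Even so, 2185 bins held both classes, 129 held SATB1-only alone and 241 CTCF-only alone.

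**Figure D3:**
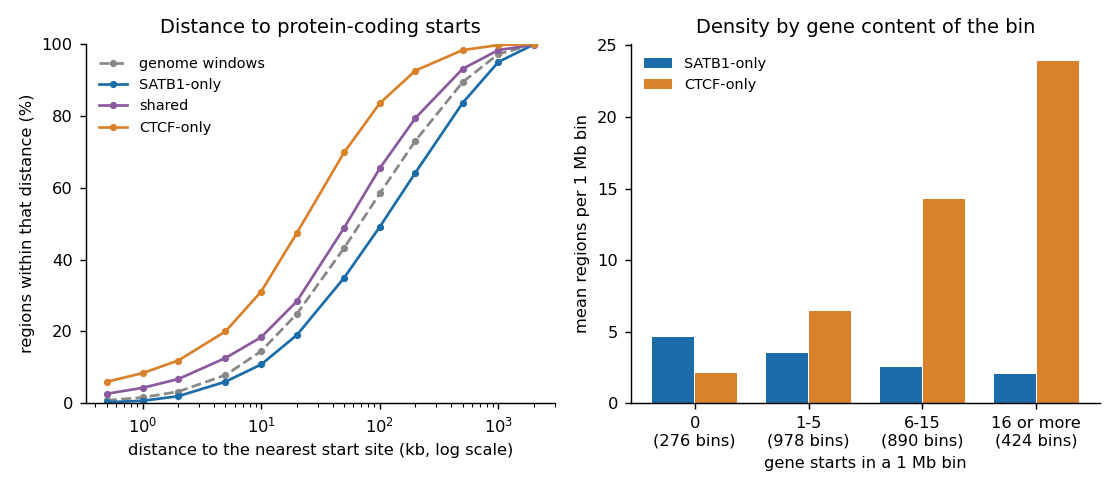
Left, cumulative percentage of regions within a distance (kb, log scale) of the nearest protein-coding start site, by class and for genome windows (dashed). Right, mean number of SATB1-only and CTCF-only regions in bins of 1 Mb grouped by the number of gene starts they hold. CTCF-only rises from 2.14 to 23.9 per bin as genes become denser and SATB1-only falls from 4.64 to 2.07.

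The classes were spaced differently too. The nearest neighbour of the same class lay at a median of 96.5 kb for SATB1-only, 15.0 kb for CTCF-only and 626 kb for shared regions. Since there are more CTCF-only peaks, the 7886 of highest −log10 q were also taken, and their median was 46.2 kb, still closer together than SATB1-only regions. A neighbour within 10 kb was present for 5.92% of SATB1-only, 38.4% of CTCF-only and 14.4% of shared regions, and for 15.4% of the 7886 CTCF-only peaks of highest −log10 q. From a SATB1-only region to the nearest CTCF peak the median distance was 65.8 kb, against 77.4 kb from unbound BURs and 42.6 kb from genome windows. A CTCF peak was within 10 kb for 13.0%, 11.1% and 19.2% of these. SATB1-only regions and unbound BURs were chosen to overlap no CTCF peak, while genome windows were not. The genome values are therefore no like comparison, and whether SATB1 lies nearer to or farther from CTCF was not tested.

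On the autosomes SATB1-only regions ranged from 2.21 per Mb on chromosome 7 to 3.57 on chromosome 16. CTCF-only peaks ranged from 9.22 per Mb on chromosome 3 to 17.9 on chromosome 11. Chromosome 11, with 13.6 protein-coding genes per Mb, had 0.125 SATB1-only regions for each CTCF-only peak. The X chromosome, with 5.59 genes per Mb, had 0.631, from 3.04 SATB1-only regions and 4.81 CTCF-only peaks per Mb. Chromosome Y held 1 SATB1-only region, 5 CTCF-only peaks and 6 shared regions.

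The strongest SATB1-only regions had nearly equal folds in both lists, and 3 of the 5 lay 201 kb or more from a gene. The highest lay 216 kb from Col12a1, a collagen gene, at chr9:79229950-79230540, with folds of 35.6 and 34.6. The second lay in an intron of Ces1e, a carboxylesterase gene, at chr8:95730996-95731529, with 34.3 and 35.4. The others were 201 kb from Klhl13 with 34.7 and 34.9, 5.69 kb from Murc with a mean of 33.7 ± 0.443 (SD, n = 2 lists), and 653 kb from Bcl11a, a zinc finger repressor gene, with 33.5 ± 0.686 (SD, n = 2 lists). All 5 lay on a BUR and had a peak in 7 of the 11 lists, and their AT content ran from 61.7% to 72.8%. None had a CTCF core motif in its window.

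Of the 5 strongest CTCF-only peaks 3 lay at a start site, and 4 had an AT content below the median of their class. Values follow for those ranked 2 to 5 by fold, the 4 of low AT content. Peaks over exons of Rapgef1 (22.7), Exosc8 (22.4), which encodes a subunit of the RNA exosome, and Vps36 (21.5), which encodes an endosomal sorting subunit, were centred 0.149, 0.0410 and 0.0830 kb from a start site. The peak with 20.7 lay 6.21 kb from Hif1an, which encodes a hydroxylase that inhibits HIF1. AT content in these 4 was 30.1% to 44.5%. None of these 4 lay on a BUR.

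The genes with the most SATB1-only regions in their body were very long, as a count by gene favours. Lrp1b, an LDL receptor family gene of 2058 kb, held 15 SATB1-only regions in its body, 4 CTCF-only peaks and 1 shared region. Gpc5, a glypican gene, held 12, 4 and 1. Il1rapl1, which encodes a synaptic adhesion protein, held 12, 1 and 2. Ptprd, a receptor phosphatase gene, held 12 SATB1-only regions and 6 CTCF-only peaks, and Dmd, the dystrophin gene, 11 and 7. These are 4.87 to 8.73 SATB1-only regions per Mb of gene, against a mean of 3.06 over all bins of 1 Mb. The genes were picked by this count, so a density above the mean follows in part from the choice. CTCF-only peaks were most numerous in 2 annotated models of 4435 kb and 3009 kb that span many other genes, Gm20388 with 142 and Fgfr2 with 62, and then in Fry with 19 and Camta1 and Pde4d with 18 each. Fry, at 379 kb, held 50.1 CTCF-only peaks per Mb.

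The densest bins of 1 Mb differed in gene content. SATB1-only regions were densest at chr6:69000001-70000000, where immunoglobulin kappa variable genes lie, with 17 SATB1-only regions, 1 CTCF-only peak and 132 BURs. The bins chr7:22000001-23000000 and chr7:21000001-22000000, which hold vomeronasal receptor genes, had 17 and 15 SATB1-only regions and no CTCF-only peak. CTCF-only peaks were densest at chr10:80000001-81000000, with 65 CTCF-only peaks, 1 SATB1-only region and 59 gene starts. Next were chr4:140000001-141000000 with 55 and none, and chr17:35000001-36000000, which holds genes of the major histocompatibility complex, with 53 and 5. The AT content of the CTCF-dense bins was 46.3% to 51.1% and that of the SATB1-dense bins 59.1% to 62.2%.

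Of 22367 protein-coding genes 12.3% had a SATB1-only region within 10 kb of their body, 60.9% had a CTCF-only peak and 2.30% had a shared region. Both SATB1-only and CTCF-only were near 8.11%, and neither near 34.9%. These shares rose with gene length. Among the 8861 genes under 10 kb 5.54% had a SATB1-only region and 44.2% a CTCF-only peak, and among the 954 genes of 200 kb and more 65.1% and 91.0%.

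Epidermal genes were read against those shares. Of the 66 genes of the epidermal differentiation complex, which encode proteins of the cornified envelope, 5 (7.58%) had a SATB1-only region and 24 (36.4%) a CTCF-only peak. S100a7a, a calcium-binding protein gene, had 3 CTCF-only peaks, and Lelp1, Lor, which encodes loricrin, and S100a14 had 2 each, all without a SATB1-only region. Of the 51 keratin genes, the intermediate filaments of epithelia, 2 (3.92%) had a SATB1-only region, 23 (45.1%) a CTCF-only peak and 3 (5.88%) a shared region. Krt14, the keratin of basal cells, had 1 SATB1-only region and 1 CTCF-only peak. Krt10, the keratin of suprabasal cells, and its neighbour Krt28 each had a shared region, with 1 and 3 CTCF-only peaks, and Krt12, a keratin of the cornea, had 2 CTCF-only peaks. Of the 46 keratin-associated protein genes, which serve the hair shaft, 6 (13.0%) had a SATB1-only region and 11 (23.9%) a CTCF-only peak. Krtap16-1 and Krtap16-2 had 2 SATB1-only regions each, and Krtap15 and Krtap4-9 had 1 beside 2 CTCF-only peaks. Flanks of neighbouring genes overlap, as for Krtap16-1 and Krtap16-2 or for Krt10 and Krt28. The same region can therefore count for several genes, and genes of a cluster are not independent units. These genes are short, with median lengths of 1.76, 6.99 and 0.854 kb in the 3 lists, so the genes under 10 kb are the nearer background. Within 50 kb a CTCF-only peak was present for 81.8% of the differentiation complex genes, 100% of the keratin genes and 67.4% of the keratin-associated genes, against 83.7% of all genes. For SATB1-only regions these shares were 36.4%, 17.6% and 34.8%, against 25.6%.

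Regulators and adhesion genes of the epidermis are longer, with median lengths of 21.9 and 46.2 kb, and among all genes of 10 to 50 kb 66.6% had a CTCF-only peak and 8.02% a SATB1-only region. Of 22 epidermal transcription factor genes 18 (81.8%) had a CTCF-only peak, 1 (4.55%) a SATB1-only region and 2 (9.09%) a shared region, and 3 names of the list were not in the annotation. One of the genes with a shared region was Satb1 itself, with 10. The other was Grhl2, a grainyhead factor gene, which had 6 CTCF-only peaks, 1 SATB1-only region and 1 shared region, and Cebpb and Lef1 had 4 CTCF-only peaks each. Of 21 genes of adhesion and basement membrane 17 (81.0%) had a CTCF-only peak and 3 (14.3%) a SATB1-only region. Dst, which links keratin to hemidesmosomes, had 12 CTCF-only peaks and 2 shared regions, Plec had 7, and the integrin genes Itga3 and Itga6 had 5 and 4. Of the 9 desmosomal cadherin genes 1, Dsg2, had a CTCF-only peak and none had a SATB1-only region.

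Other families differed in the same readout. Of 1113 olfactory receptor genes, 11.5% had a SATB1-only region and 7.91% a CTCF-only peak, and of 325 vomeronasal receptor genes 15.7% and 3.08%. In both, SATB1-only was near the share of all genes and above the 5.54% of genes under 10 kb, and CTCF-only was below both backgrounds. Receptor genes of these families share sequence, and unique mapping leaves out reads that fit several copies. Neighbouring genes of these and other clustered families have overlapping flanks, so the same region can count for several genes. Vmn1r112 had 5 SATB1-only regions and no CTCF-only peak, and Olfr1285 had 3 and none. Ribosomal protein genes were the reverse, with CTCF-only at 71 of 83 (85.5%) and SATB1-only at 3 (3.61%), and Rpl38 had 5 CTCF-only peaks. Of 40 Hox gene models 32 (80.0%) had a CTCF-only peak and 5 (12.5%) a SATB1-only region, with 5 CTCF-only peaks at Hoxa3. Of 24 clustered protocadherin genes 8 (33.3%) had a CTCF-only peak and none a SATB1-only region. Imprinted genes had a CTCF-only peak in 16 of 23 (69.6%) and a SATB1-only region in 5 (21.7%), with 2 of each near Grb10. Neuronal adhesion genes, with a median length of 1077 kb, had both in most cases, CTCF-only in 31 of 32 (96.9%) and SATB1-only in 28 (87.5%). Among all genes of 200 kb and more SATB1-only was near 65.1%, a background not matched to that median length. The list also includes the dystrophin gene Dmd and, with Lrp1b and Ptprd, holds genes named above for their many SATB1-only regions. Whether the list exceeds genes of like length was not tested.

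**Figure D4:**
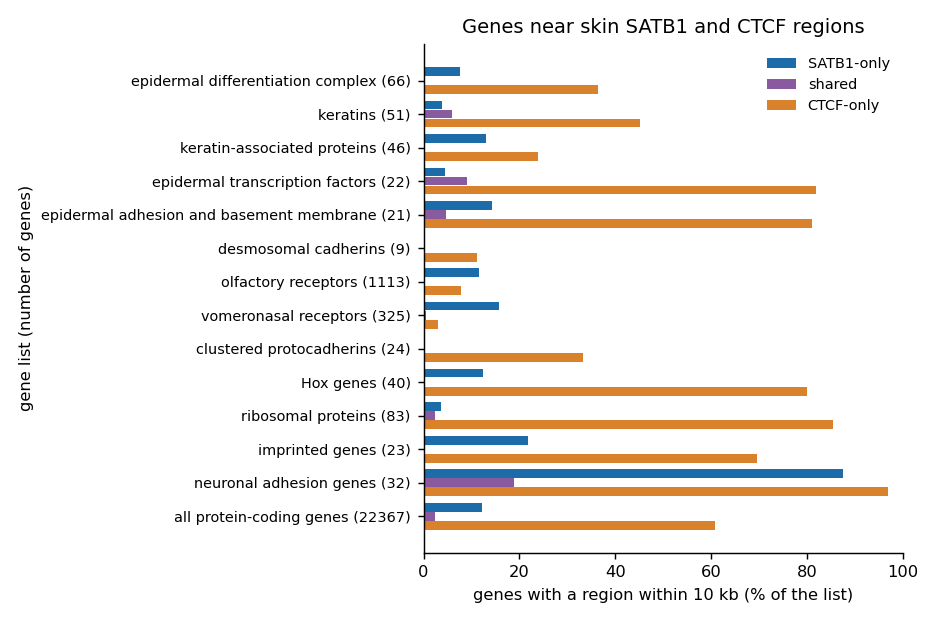
Percentage of the genes of each list (number of genes in brackets) with a SATB1-only, shared or CTCF-only region within 10 kb, with all protein-coding genes at the bottom. CTCF-only exceeds SATB1-only in every list except the olfactory and vomeronasal receptor genes.

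The 978 shared regions had higher CTCF folds than CTCF-only peaks. The series holds input and Satb1 knockout libraries of thymus but none of skin. Shared therefore means called with both antibodies, and binding by both proteins was not tested. Their median SATB1 fold was 9.64 and their median CTCF fold 13.4, against 9.26 in SATB1-only regions and 5.62 in CTCF-only peaks. Across the shared regions the folds of SATB1 and CTCF rose together, with a Spearman rho of 0.78, a description over regions of the same libraries. The CTCF fold was between 1.02 and 1.56 times the SATB1 fold in the middle range from the 25th to the 75th percentile, with a median of 1.21. Their lengths fell into narrow ranges: 53.5% were 400 to 460 bp and 15.1% were 230 to 250 bp, against 17.6% and 0.913% of SATB1-only regions and 17.6% and 4.28% of CTCF-only peaks.

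**Figure D5:**
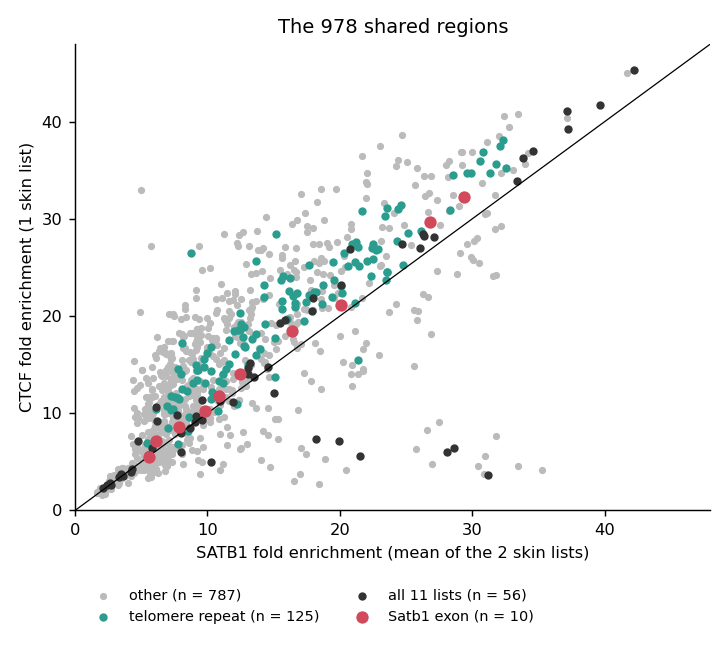
CTCF fold enrichment (vertical axis, 1 list) against SATB1 fold enrichment (horizontal axis, mean of the 2 lists) for each of the 978 shared regions, with the line of equal values. The 10 regions on Satb1 exons, the 125 with telomere repeats and the 56 with a peak in all 11 lists are coloured, and the Satb1 exon regions lie close to the line.

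Repeated sequence was common in the shared class. At least 3 tandem copies of TTAGGG, the repeat unit of mammalian telomeres, on either strand, were in 125 shared windows (12.8%), 23 CTCF-only windows (0.0771%), no SATB1-only window and 0.00586% of genome windows. A run of 10 or more G or of C was in 6.13% of shared, 1.96% of CTCF-only, 0.444% of SATB1-only and 1.17% of genome windows. Tandem repeats of at least 24 bp, which include the telomere repeats, were in 28.9%, 5.56%, 8.58% and 7.17%. A median of 10 or more genome copies of the 24-base words of the window was found for 16.9% of shared regions, 1.18% of CTCF-only and 2.94% of SATB1-only, and for 11.9% of genome windows. Any of these or a peak in all 11 lists applied to 455 shared regions (46.5%), against 11.6% of SATB1-only and 8.21% of CTCF-only. By the class rule only a shared region can have a peak in all 11 lists, and 56 did, so this part of the contrast is fixed. No genome share was computed for the combined criterion, and genome windows reached 11.9% for copies alone. The 11.6% and 8.21% are therefore not a low baseline. Without windows of repeated sequence and without the Satb1 gene, an exclusion chosen after seeing the data, 553 shared regions, 6970 SATB1-only regions and 27367 CTCF-only peaks remained. The part of repeats and mapping in the shared class was not tested.

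Shared regions were found again in the standard SATB1 lists more than in any urea list. Of them 57.3% had a peak in standard list 1 and 69.3% in list 2, and 78.7% in either, against 1.33% of SATB1-only regions and 36.6% of CTCF-only peaks. Thymus urea SATB1 met 17.9% and 17.3% of them, brain 17.1% and 17.0%, and thymus CTCF 16.9%. The most frequent pattern, in 245 shared regions, was a peak in both standard lists and in no other list beyond skin, and 134 had a peak in none of the other lists. Of the 125 regions with telomere repeats 99.2% were in each standard list, while none was in either thymus urea SATB1 list.

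Shared regions on a BUR differed from those off a BUR. The 247 on a BUR had a median AT content of 61.2% and the 731 others 52.1%, and a thymus urea SATB1 peak was present in 45.7% in both lists against 8.48% and 7.66%. In a set of 30 the CTCF fold was below 0.5 times the SATB1 fold, with medians of 5.09 and 20.2. Of these 86.7% lay on a BUR and 27 were in both thymus SATB1 lists. In 764 (78.1%) neither protein had a thymus urea peak, and the median folds were 9.64 for SATB1 and 14.4 for CTCF, with 16.1% on a BUR.

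Leaving out regions with a peak in all 11 lists, the 5 highest shared regions were called with close values for both proteins. They lay in introns of Cdrt4 at chr11:62768183-62768425 (SATB1 41.8 and 41.5, CTCF 45.0), Hhat (37.9 and 36.5, CTCF 40.3), Atp13a4 (34.2 and 34.2, CTCF 36.8) and Pcdh15 (33.4 and 34.6, CTCF 35.6), and 368 kb from Nlgn1 (34.7 and 32.3, CTCF 40.8). Hhat encodes an acyltransferase that modifies hedgehog proteins and Pcdh15 a cadherin of hair cells of the inner ear. One of the 5, in Pcdh15, lay on a BUR, and none had the CTCF core motif in its window around the SATB1 summit. Their lengths were 236 to 446 bp.

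Satb1, the gene of the SATB1 protein itself, held more shared regions than any other gene. In its body at chr17:51875512-51972615, minus strand, lay 10 shared regions, no SATB1-only region and 1 CTCF-only peak. All 10 lay on exons. They covered 10 of the 11 coding exons of the longest coding sequence and 96.0% of its 2385 coding bases, while they covered 5.76% of the gene. Of the annotated exons under them 9 were covered whole, with the centres of region and exon 1 to 26 bp apart.

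The folds on the Satb1 exons were nearly the same for both antibodies. The highest, on coding exon 8, were 29.6 and 29.1 for SATB1 and 32.3 for CTCF. On coding exon 7 they were 26.5, 27.1 and 29.6, and on coding exon 6 they were 20.4, 19.8 and 21.2. The lowest were on coding exon 3, with 5.49, 5.61 and 5.47. The ratio of CTCF to SATB1 was 0.985 to 1.16 over the 10 regions, a narrower range than in the shared class as a whole. The exception among the coding exons, number 10, is 96 bp long and had no peak in any list.

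The BUR map had a peak on each of the same 10 coding exons, with folds of 3.88 to 15.2. The AT content of the 10 regions was 45.9% to 60.6%, in each below the median of SATB1-only regions, although all 10 lay on a BUR. Thymus urea SATB1 list 1 had a peak on coding exon 1 with a fold of 6.02 and list 2 had none on a coding exon, although each of these lists met 1 of the 10 regions. Neither brain list nor thymus CTCF had any on a coding exon, and each standard list had 1, with folds of 3.63 and 5.04. The 2 skin SATB1 lists had 10 peaks each in the gene, all on exons. What the regions on Satb1 exons come from was not tested.

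Other genes with at least 3 shared regions in their body were Mid1 with 5, Sfi1 with 4, and Drg1, Dux and the long models Fgfr2 and Gm20388 with 3 each. Dux is a repeated homeobox gene of 3.41 kb. Shared regions on exons were found in 62 genes, and 2 of these, Satb1 and Dux, had 3 or more. The densest bins were chr9:3000001-4000000 with 26 shared regions, chr11:3000001-4000000, which holds Sfi1 and Drg1, with 13, and chr17:51000001-52000000 with 10, all in Satb1. The chr9 bin holds the gene models Gm10715 to Gm10722, which are also among the 62 genes. The part of repeated sequence in these bins was not tested.

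In thymus the share of SATB1 peaks that overlapped CTCF was smaller. Of the skin SATB1 peaks 11.0% ± 0.578 (SD, n = 2 lists) overlapped skin CTCF, and of the thymus SATB1 peaks 0.554% ± 0.0441 (SD, n = 2 lists) overlapped thymus CTCF. The difference of 10.4 percentage points gave p = 0.333 in a two-sided exact permutation test, the smallest p this design allows. Both skin values, 11.4% and 10.6%, lay above both thymus values, 0.523% and 0.585%. Seen from CTCF the gap was narrower. The 2 thymus SATB1 lists met 1.22% and 1.17% of thymus CTCF peaks, and the 2 skin SATB1 lists 4.00% and 3.61% of skin CTCF peaks. The skin CTCF list met 0.804% and 0.867% of thymus SATB1 peaks, and the thymus CTCF list 1.68% and 1.70% of skin SATB1 peaks. The same class rule gave 207 shared regions in thymus, of which 62.8% lay on a BUR and none held a telomere repeat. The tissues differ in list length, with 44926 and 38771 SATB1 peaks in thymus on these chromosomes, against 10989 and 10619 in skin. The CTCF lists held 20219 peaks in thymus and 31215 in skin. Title codes differ too, and so does age by title, since the thymus SATB1 titles say postnatal day 13 and the thymus CTCF title 6 weeks. These differences cannot be told apart from tissue.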

How the data were processed

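Peak lists of 11 samples were used, 3 of them from skin. The authors mapped reads to mm9 with Bowtie2 2.3.1, keeping unique matches, and called peaks of each sample separately with MACS2 2.2.7. In the deposited lists each peak has a position and a summit offset, a display score, which was not used, the fold enrichment as a ratio to the local background, and −log10 p and −log10 q-values. The authors' ratio is not scaled between samples. The deposited lists hold no counts, and the read totals were not given in the sources used here, so no counting interval is given. Precision is the spread between the 2 SATB1 lists, and CTCF has 1 list. The labels do not say whether these libraries came from separate animals. The study's checklist says so of its replicates in general, while both SATB1 libraries share a code number in their titles, of unstated meaning.

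Python 3.11.15 was used, with numpy 2.4.6 for overlaps and features, the scipy library 1.17.1 for the exact permutation test and numba 0.67.0 for counting genome copies. The NCBIM37 genome was accessed through pysam 0.24.0 and figures made in matplotlib 3.10.9. Genes came from GENCODE vM1. Overlapping SATB1 peaks were merged. The scripts were tested on simulated data. Sequence on unplaced contigs was not used here for composition.

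Members, gene lists and comparisons were chosen with earlier results of these data known. Named were, for each class, the 5 regions of highest fold outside regions where all lists have a peak (for shared regions by the lower of the 2 proteins), the 5 genes with the most regions in their body and the 3 densest bins of 1 Mb, up to 4 genes per list by regions within 10 kb, and sequences of the 2 highest regions per class not on chromosome 18. Of these, 1 CTCF-only peak, the first by fold, is not reported here. The alternatives were a stricter q, a larger overlap, equal list sizes, removal of regions with a peak in all lists, other sequences, other windows and centres, and each SATB1 list left out.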

Additional observations from a re-analysis of the deposited data

How the results depend on the processing

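No difference between the classes changed sign under any alternative. With CTCF limited to its highest −log10 q peaks, as many as the smaller SATB1 list holds, CTCF-only fell to 9598 peaks, SATB1-only minus CTCF-only became 15.7 points for AT content, 84.9 for BUR overlap, -9.94 for start sites within 1 kb and -9.00 genes per Mb, and the log10 ratio of spacing fell from 0.808 to 0.386. A −log10 q of at least 5 gave 14.6 for AT content and -7.66 for start sites, and 300 bp around the summit gave 17.0 for AT content. BUR overlap, SATB1-only minus CTCF-only, was 85.6 points, 87.2 with an overlap of 50% and 87.3 with the centre inside a BUR. Shared minus CTCF-only was 22.1 points, 17.2 without regions where all lists have a peak and 28.9 with all sequences. The start-site difference was -8.84 with all annotated genes and -20.3 within 10 kb. The density difference was -2 in windows of 200 kb, and the spacing ratio 0.771 over all gaps. The number of shared regions was 553 without repeated sequence and Satb1, an alternative added after seeing the data. The causes were not tested beyond what each setting removes.

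With 1 SATB1 list left out, AT content gave 15.2 to 15.3, BUR overlap 82.8 to 83.2 for SATB1-only and 18.0 to 20.0 for shared regions, start sites -7.66 to -7.60 and spacing 0.715 to 0.729. The difference in overlap with CTCF between skin and thymus, 10.4 points, was 8.23 with CTCF limited as above, 11.7 with all sequences and 10.0 to 10.9 with 1 list left out, always with skin higher. Its test cannot pass 0.05. Other values not given here moved by no more than the spread of the 2 lists or, for counts, stayed within 1.5 times. No AT, start-site or density value could be given with all sequences, since unplaced contigs were not used here. No paired analysis was possible because CTCF has 1 skin list without a replicate number, and the classes come from no replicated test. Without counts, weak peaks cannot be told from absent ones, and 3855 SATB1 regions found by 1 list have a lower fold.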
